A study of Homo sapiens with 15 samples.

Results

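The transcriptome of HepG2 cells that received non-cloaked mRNA in lipid particles was compared with that of untransfected HepG2 cells. The comparison used 6 of the 15 samples of the study, the 3 labelled non-cloaked and the 3 labelled untransfected control, and covered all 18380 genes with enough counts to be tested. HepG2 is an established line grown from a human liver carcinoma, and every sample carried the same wild-type genotype. The untransfected group received no particles and no mRNA. The non-cloaked group received 1 µg of mRNA for the reporter eGFP (enhanced green fluorescent protein) in a commercial lipid nanoparticle reagent (NanoLNP). The 9 other samples, 3 per grade, received the same dose of eGFP mRNA in the same reagent after treatment of the mRNA with CR-3. That treatment was 0.1 M for 0.5 h at 25 °C (weak-cloaked), 0.5 M for 1 h at 30 °C (medium-cloaked) or 1 M for 2 h at 37 °C (strong-cloaked). Concentration, time and temperature changed together between the grades. All cells were lysed at 48 h. No group with particles alone is in the design, so a difference between these groups covers particle, mRNA and translated eGFP together, which cannot be told apart. No row for eGFP was analysed here.

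Lipid nanoparticles enter cells by endocytosis, and part of their cargo leaves the endosome and is translated in the cytosol. Foreign RNA can be sensed on the way: TLR3 and TLR7 face the endosome, RIG-I (gene DDX58) and MDA5 (IFIH1) read RNA in the cytosol through MAVS, and the kinase PKR (EIF2AK2) and the OAS enzymes act to slow translation and have RNA cut. Sensing by these receptors leads to type I and type III interferons, to interferon-stimulated genes and to NF-κB targets. Hepatocytes are the main cells that take up such particles in the body, and HepG2 cells keep many hepatocyte genes while growing as a carcinoma line.

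The 6 libraries held between 61472811 and 76476960 counts, and the spread between replicates, not depth, set the precision for most genes. The biological coefficient of variation came to 0.344. The 95% interval of a log2 fold change reached 0.643 to either side in the median gene. In a principal component analysis of the 6 libraries the first axis held 44.1% of the variance and separated the groups, with untransfected libraries at -25.9, -31.7 and -42.1 and non-cloaked libraries at 14.8, 36.7 and 48.1. Non-cloaked replicate 1 was the library nearest to the untransfected mean in 67.4% of the genes called different and in 53% of all tested genes of moderate or high level. All 15 libraries shared 1 estimate of spread, and among them weak-cloaked replicate 1 did not lie with its group. It was at -36.1 on the first axis of all libraries, near the untransfected ones (-51.8 to -46.4) and away from the other 2 of its group (21.6 and 33.5). Counts of calls are therefore given with it and, for most gene lists, in brackets or beside them, without it. The label of the cell line was checked on 10 HepG2 markers, which summed to 14844 to 18069 CPM (counts per 1000000) in untransfected and 15768 to 17224 CPM in non-cloaked libraries. Mitochondrially encoded mRNAs made up 2.41% to 2.75% and 2.30% to 2.57% of counts.

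Promoter stretches of 5 genes that rose are shown here because each carries the letters of a known response element. For the cyclic AMP response element no pathway is described below. The sequences are RefSeq's (GRCh38.p14), 5′ to 3′ on the gene's strand, upstream of the RefSeq start and free of GENCODE exons of the gene, with the matching letters in capitals. ISG15 (chr1:1013247-1013422, plus strand) holds 2 overlapping matches on the minus strand to the interferon-stimulated response element core (TTTC, 2 bases of any kind, TTTC), and this stretch lies inside the longer span that GENCODE gives the gene. CXCL8 (chr4:73740319-73740505, plus) holds the NF-κB letters GGAATTTCC and the AP-1 letters TGANTCA. MT1X (chr16:56682220-56682423, plus) holds 4 matches to the metal response core TGCNCNC, 3 on the plus and 1 on the minus strand. DUSP1 (chr5:172771196-172771445, minus) and AREG (chr4:74444886-74445133, plus) hold the cyclic AMP response element TGACGTCA.
ISG15: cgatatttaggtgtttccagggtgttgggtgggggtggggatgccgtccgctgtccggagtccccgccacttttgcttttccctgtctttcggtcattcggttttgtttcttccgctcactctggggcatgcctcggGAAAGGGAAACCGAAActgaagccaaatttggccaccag
CXCL8: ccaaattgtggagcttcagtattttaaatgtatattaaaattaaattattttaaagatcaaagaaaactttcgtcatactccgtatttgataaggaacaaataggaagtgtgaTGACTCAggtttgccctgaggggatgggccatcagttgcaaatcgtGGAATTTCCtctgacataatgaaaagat
MT1X: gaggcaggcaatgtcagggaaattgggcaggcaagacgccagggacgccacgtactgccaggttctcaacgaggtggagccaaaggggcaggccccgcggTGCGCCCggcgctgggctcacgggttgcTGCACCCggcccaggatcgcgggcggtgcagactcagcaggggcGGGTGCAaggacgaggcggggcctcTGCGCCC
DUSP1: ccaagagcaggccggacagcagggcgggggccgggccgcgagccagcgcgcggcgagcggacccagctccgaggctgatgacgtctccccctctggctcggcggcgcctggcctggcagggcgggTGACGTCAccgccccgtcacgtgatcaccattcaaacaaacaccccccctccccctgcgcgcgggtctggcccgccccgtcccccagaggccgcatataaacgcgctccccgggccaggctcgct
AREG: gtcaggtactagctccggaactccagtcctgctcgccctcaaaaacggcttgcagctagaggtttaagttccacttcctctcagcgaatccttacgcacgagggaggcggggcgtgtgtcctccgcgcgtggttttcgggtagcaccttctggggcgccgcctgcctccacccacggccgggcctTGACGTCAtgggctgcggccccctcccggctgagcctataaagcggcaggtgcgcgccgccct
Searched on both strands over the 250 bases before the start in 27305 RefSeq promoters, the interferon core was found in 3.07%, GGAATTTCC in 0.428%, TGANTCA in 6.6%, TGCNCNC in 48.4% and TGACGTCA in 1.77%. Of the 93 genes called in every fit (below), 67 have an entry in that table, and TGACGTCA was found in 6 of the 56 that rose. A match describes letters only and is not evidence of binding.

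Non-cloaked cells differed from untransfected cells in 1195 genes, or 6.5% of those tested (edgeR's quasi-likelihood test, Benjamini-Hochberg adjusted p below 0.05, here "called"). Of these, 706 were higher (3.84% of tested genes) and 489 lower (2.66%), and 485 (2.64%) differed by 2-fold or more. Most changes were small. Of the called increases 180 were under 1.5-fold, 318 between 1.5- and 2-fold, 178 between 2- and 4-fold, 23 between 4- and 8-fold and 7 above 8-fold, and of the called decreases 32, 180, 244, 26 and 7. Libraries of the groups did not overlap in 6352 genes (34.6%). Called genes were mostly protein coding, with 663 of 15393 such genes higher and 451 lower, against 18 and 29 of 1763 long noncoding RNAs. Without weak-cloaked replicate 1 in the fit, 3107 of 18823 genes were called (16.5%), 1560 higher (8.29%) and 1547 lower (8.22%), including all 1195. Directions are relative to the bulk of genes: with libraries scaled by total counts 1104 genes were called, of which 346, or 31.3% in place of 59.1%, were higher, and the median log2 fold change of all tested genes went from -0.04 to -0.24.

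The number of calls rested on single libraries. It was 250, 235 and 379 without untransfected replicate 1, 2 and 3, and 1127, 119 and 185 without non-cloaked replicate 1, 2 and 3. Of the 1195 genes, 1193 kept their sign in each of the 16 alternative fits that tested them. These fits reuse the libraries in which the genes were called, so a kept sign was largely fixed in advance. A set of 93 genes, 80 higher and 13 lower, was called in the main fit and in every alternative. This set was picked after its values were seen and is used below to say which named genes were called in every fit. For the gene lists, the counts in the fits that leave out 1 compared library are given in a fixed order, untransfected replicate 1, 2 and 3 and then non-cloaked replicate 1, 2 and 3. Of the 117 named genes that were called in this comparison, 23 belong to it, and all 117 were called without weak-cloaked replicate 1.

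Of the 80 increases called in every fit, 9 in genes of secreted proteins are described first, picked after their values were seen. AREG, which encodes the epidermal growth factor receptor ligand amphiregulin, stood at 2.65, 2.35 and 3.35 CPM in the 3 untransfected libraries and at 10.1, 10.3 and 11.9 CPM in the non-cloaked ones. The groups lay far apart, and the log2 fold change was 1.95 ± 0.18 (SE; adjusted p = 0.000224). EREG, the gene of the related ligand epiregulin, was low throughout, at 0.280, 0.0686 and 0.197 CPM against 1.64, 1.92 and 0.973 CPM (3.05 ± 0.47, adjusted p = 0.00594). CXCL8, the gene of the neutrophil chemokine interleukin 8 (chr4:73740506-73743716, GRCh38), had 3.33, 4.03 and 3.33 CPM and then 11.9, 7.58 and 18.2 CPM (1.82 ± 0.27, adjusted p = 0.00482), with the widest spread of these genes among the non-cloaked libraries. LGALS1, the gene of the secreted lectin galectin-1, rose from 65, 77.8 and 59.8 to 209, 249 and 229.8 CPM (1.76 ± 0.17, adjusted p = 0.000224). The eotaxin-3 gene CCL26 rose by 3.01 ± 0.28 and the cytokine gene IL11 by 1.44 ± 0.21, both from under 2 CPM. WNT7B, a Wnt ligand gene, went from 0.839, 1.06 and 0.744 to 4.54, 4.42 and 3.09 CPM (2.18 ± 0.23). TIMP1, an inhibitor of metalloproteinases, rose by 1.20 ± 0.17, and ANGPTL8, a liver-secreted regulator of lipoprotein lipase, rose from 277 ± 58.1 to 755 ± 106 CPM (mean ± SD, n = 3; 1.45 ± 0.17). All of these belong to the set called in every fit.

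In the same set the largest decreases besides SPAG1 were in G6PC1, FST, IGFBP1 and IL1RN. G6PC1, the gene of the glucose-6-phosphatase enzyme that releases glucose from liver cells (chr17:42900797-42913369), stood at 39.4, 42.5 and 46.5 CPM in untransfected and 7.87, 6.33 and 3.52 CPM in non-cloaked libraries (-2.86 ± 0.35, adjusted p = 0.00183). IGFBP1, a liver-secreted binding protein of insulin-like growth factors that insulin represses (chr7:45888357-45893668), fell from 1221, 1485 and 1118 to 400.3, 312 and 506 CPM (-1.65 ± 0.23, adjusted p = 0.00369). IL1RN, the gene of the interleukin-1 receptor antagonist (chr2:113107214-113134016), fell from 22, 26.6 and 22 to 7.28, 9.17 and 8.77 CPM (-1.49 ± 0.16, adjusted p = 0.000844). FST, the gene of the activin-binding protein follistatin, varied widely in untransfected cells, at 51.1, 30.1 and 80.6 CPM, and lay at 8.38, 10.2 and 8.31 CPM in non-cloaked cells (-2.59 ± 0.31, adjusted p = 0.00169). In all 4 genes every non-cloaked library lay below every untransfected library. The other members that fell include the cadherin gene CDH2 (-0.71 ± 0.11), the liver homeobox gene HHEX (-0.69 ± 0.10) and the complement gene C5 (-1.09 ± 0.18).

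Interferon transcripts were at or near 0 at 48 h. IFNB1 had 4, 0 and 0 counts in the untransfected libraries and 0 in each non-cloaked library, and IFNL1 had 0 in all 6. A count of 0 allows up to 3 counts per library, or 0.0343 to 0.0512 CPM, for counting error only. CXCL10, a chemokine gene induced by interferons, had 0, 4 and 0 counts against 4, 0 and 0, and TLR7 had 0 in all 6. Among the 8 tested genes of interferons and their receptors only the receptor gene IFNAR1 passed the test, lower at 17.1, 12 and 11.9 CPM against 23, 25.4 and 34.9 CPM (-1.02 ± 0.27, adjusted p = 0.0398).

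Interferon-stimulated genes went both ways. Of 40 tested members of a list of 44, 5 rose (12.5%) and 2 fell (5.0%), with a median log2 fold change of -0.23 beside -0.04 for all tested genes. The median was -0.03 with offsets for transcript length and GC content. Without weak-cloaked replicate 1 there were 7 higher and 6 lower, and leaving out 1 compared library gave 2, 2, 2, 5, 2 and 2 higher and 0, 0, 0, 5, 0 and 0 lower. ISG15, which encodes a ubiquitin-like antiviral modifier (chr1:1001138-1014540), stood at 28.5, 26 and 26.8 CPM in untransfected and 48.2, 56.2 and 67.1 CPM in non-cloaked libraries. The rise of 1.08 ± 0.16 (adjusted p = 0.00414) held in every fit. OAS1, the gene of an antiviral enzyme switched on by double-stranded RNA, rose from 27.9, 23.8 and 19.1 to 41.4, 44.2 and 44.3 CPM (0.88 ± 0.13, adjusted p = 0.00448), also in every fit. The membrane-protein genes IFITM1 (0.64 ± 0.16) and IFITM2 (0.69 ± 0.15) and IFI27 (0.75 ± 0.18) rose as well. In the other direction the kinase gene EIF2AK2 fell from 33.9, 40.8 and 38.3 to 27.7, 23.5 and 20.9 CPM (-0.65 ± 0.17, adjusted p = 0.0416) and the antiviral GTPase gene MX2 by 0.56 ± 0.14. OAS3 (0.30 ± 0.11, adjusted p = 0.115), OAS2 (0.87 ± 0.88) and MX1 (-0.97 ± 0.35, adjusted p = 0.0955) did not pass the test. The interferon element core shown above was found in 19 of the 35 members with a RefSeq promoter, and in 3 of the 4 that rose and have one (ISG15, IFI27 and IFITM1). The AP-1 letters were in none of 19 immediate early genes with a promoter, and TGACGTCA in 2 of them and in 1 of the 6 that rose. GGAATTTCC was in 10 of 21 NF-κB list members and in 1 of the 3 that rose, CXCL8. A longer NF-κB form, in 1.42% of all promoters, was in 11 of the 21 and in 2 that rose, TNFAIP3 and IL32. Both forms were also in NFKB1, the list member that fell. The antioxidant element core TGACNNNGC (11% of all promoters) was in 4 of 18 NRF2 targets and in none of the 6 that rose and have a promoter. The insulin response core CAAAACA (4.34%) was in 1 of 19 glucose genes and in none of the 2 that fell and have a promoter. The metal response core, found in 48.4% of all promoters, was in 5 of 8 metal-response genes and in all 3 that rose and have a promoter.

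Most called genes of RNA sensing were lower. Of 20 tested members 1 rose (5.0%) and 3 fell (15%), and the median was -0.38 (2 higher and 5 lower without weak-cloaked replicate 1). With the length and GC offsets none was called and the median was -0.21, and none was called with the 6 libraries fitted alone or in 4 of the 6 fits that left out 1 of them. MAVS, the mitochondrial adaptor of RIG-I, fell from 164, 182 and 170.4 to 147, 138 and 118 CPM (-0.36 ± 0.10, adjusted p = 0.0491), and TRIM25, a ubiquitin ligase gene that acts on RIG-I, fell by 0.82 ± 0.23 (adjusted p = 0.0499). EIF2AK2, given above, is the third. DHX58, the gene of the RIG-I relative LGP2, rose from 0.681, 1.34 and 0.825 to 2.05, 2.86 and 1.66 CPM (1.21 ± 0.29, adjusted p = 0.0343). The sensor genes themselves did not pass: DDX58 was at 2.50, 2.76 and 1.32 CPM against 0.976, 0.766 and 0.871 CPM (-1.33 ± 0.44, adjusted p = 0.0776), IFIH1 at -0.55 ± 0.34 and TLR3, under 1 CPM in every library of the 2 groups, at -1.56 ± 1.02. In antigen presentation the transactivator gene NLRC5 fell by 1.24 ± 0.27 and the immunoproteasome gene PSMB10 rose by 0.71 ± 0.19. That is 1 each of 20 tested, or 5.0% (4 higher and 1 lower without weak-cloaked replicate 1).

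Calls among NF-κB targets and immediate early genes were mostly increases. In the NF-κB and cytokine list of 22 tested genes, 3 were higher (13.6%) and 1 was lower (4.55%), with a median of 0.45 (4 higher and 1 lower without weak-cloaked replicate 1). Besides CXCL8 the increases were TNFAIP3, the gene of an NF-κB inhibitor, at 31, 41 and 33.9 against 66.2, 68.2 and 102 CPM (1.16 ± 0.21, adjusted p = 0.0128), and the cytokine gene IL32, at 247, 225 and 232 against 399.6, 451 and 491 CPM (0.93 ± 0.15, adjusted p = 0.00739). The subunit gene NFKB1 fell by 0.50 ± 0.14, and the inhibitor gene NFKBIA was at 0.36 ± 0.22 without passing the test. Among 27 tested immediate early genes 8 were higher (29.6%) and none lower, with a median of 0.73 (10 higher and 1 lower without weak-cloaked replicate 1). Leaving out 1 compared library gave 0, 0, 3, 7, 0 and 0 increases. ATF3, a stress-induced transcription factor gene, stood at 17.8, 29.7 and 34.4 CPM and 68.8, 92.9 and 87.7 CPM (1.61 ± 0.34, adjusted p = 0.0238). The AP-1 genes JUNB (1.60 ± 0.37), JUN (1.11 ± 0.31) and JUND (1.23 ± 0.28) rose. JUNB owed much to 1 library, with 28.1, 31.1 and 84.8 CPM in the non-cloaked libraries. EGR1 (1.89 ± 0.72, adjusted p = 0.114) and FOS (0.90 ± 0.47, adjusted p = 0.242) were not called. None of the 8 was called in every fit.

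Of 17 feedback genes of MAP kinase signalling 4 rose (23.5%), all of them dual-specificity phosphatases, and none fell (5 higher and 1 lower without weak-cloaked replicate 1). In the fits without 1 compared library 0, 1, 2, 4, 0 and 1 rose. DUSP1 (chr5:172768090-172771195) stood at 70.5, 88.2 and 105 CPM in untransfected and 251, 301 and 498 CPM in non-cloaked libraries (1.99 ± 0.43, adjusted p = 0.0256), with non-cloaked replicate 3 the highest. DUSP16 (1.54 ± 0.27), DUSP10 (1.12 ± 0.25) and DUSP5 (0.72 ± 0.15) were the others. Sprouty and SPRED members lay on both sides of 0, from SPRED1 at -1.42 ± 0.50 to SPRY1 at 0.69 ± 0.56, and none passed. The list's median of 0.15 was -0.05 with total-count scaling and 0.32 with length and GC offsets.

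Several p53 targets rose. Of 27 tested members 7 rose (25.9%) and none fell, with a median of 0.30, and there were 10 higher and 2 lower without weak-cloaked replicate 1. The increases numbered 2, 2, 5, 7, 2 and 2 when 1 compared library was left out. CDKN1A, the gene of the cyclin-dependent kinase inhibitor p21 (chr6:36676460-36687339), rose from 176, 201 and 221 to 483, 497 and 448 CPM (1.26 ± 0.21, adjusted p = 0.00827) and, like the antiproliferative gene BTG2 (0.83 ± 0.13), was called in every fit. The pro-apoptotic gene BBC3 (1.60 ± 0.32), the growth-arrest gene GADD45A (1.53 ± 0.34), the kinase genes PLK2 (1.42 ± 0.32) and PLK3 (2.18 ± 0.45) and BAX (0.46 ± 0.12) were the other 5. MDM2, the p53 ligase gene and a standard target, was at -0.70 ± 0.40 and the death receptor gene FAS at -0.87 ± 0.26, neither of them called. GDF15, a stress-induced hormone gene, rose from 390.1, 456 and 575 to 1193, 1530.1 and 2246 CPM (1.81 ± 0.37, adjusted p = 0.0222). GDF15 and CEBPB (0.57 ± 0.11) were the 2 of 27 ATF4 targets that rose (7.41%, and 4 without weak-cloaked replicate 1; list median 0.10, and -0.10 with total-count scaling). None of 25 genes of the unfolded protein response was called (9 higher without weak-cloaked replicate 1 and 5 with DESeq2; median 0.21), and of 24 heat shock genes only the mitochondrial chaperonin gene HSPE1 rose (0.44 ± 0.10; list median 0.19, and -0.01 with total-count scaling), with 1 higher and 1 lower without weak-cloaked replicate 1.

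Calls among metal-response genes and NRF2 targets were increases, though most NRF2 targets did not pass the test. Metallothioneins are small metal-binding proteins, and their sequences are alike enough that reads may be shared or dropped. Of 12 tested metal-response genes 5 rose (41.7%), all metallothioneins, and none fell (5 higher and 1 lower without weak-cloaked replicate 1; 4, 3, 2, 5, 2 and 2 higher when 1 compared library was left out). MT1X (chr16:56682424-56684196) stood at 25.9, 27.6 and 18.2 CPM against 49.6, 71.2 and 54.8 CPM (1.29 ± 0.19, adjusted p = 0.00454), and MT1A, at a lower level, at 0.863, 1.98 and 1.34 against 4.69, 5.60 and 4.52 CPM (1.82 ± 0.30, adjusted p = 0.00823). MT1X and MT1A were called in every fit. MT2A (0.97 ± 0.21), MT1G (0.88 ± 0.21) and MT1B (2.55 ± 0.56) also rose, while the zinc exporter gene SLC30A1 was at 0.25 ± 0.17 and did not pass. NRF2 drives genes of oxidant defence, and 7 of its 27 listed targets rose (25.9%) while none fell, with a median of 0.47. There were 11 increases without weak-cloaked replicate 1, and 2, 2, 5, 5, 2 and 3 when 1 compared library was left out. FTL, the ferritin light chain gene (chr19:48965301-48966878), rose from 5834, 4738 and 5711 to 10019, 11326 and 12809 CPM (1.07 ± 0.18, adjusted p = 0.00888). The quinone reductase gene NQO1 rose from 786, 665 and 759.8 to 1170.0, 1140.0 and 1269 CPM (0.69 ± 0.09, adjusted p = 0.00251), and both were called in every fit. OSGIN1 (1.48 ± 0.36) and PIR (0.78 ± 0.22) rose, whereas the glutathione synthesis genes GCLC (-0.59 ± 0.20) and GCLM (-0.05 ± 0.32) and the haem oxygenase gene HMOX1 (-0.28 ± 0.15) were below 0 and not called.

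Glucose and fatty acid oxidation genes of the liver went both ways. Of 23 tested genes of gluconeogenesis and glucose handling 3 rose (13%) and 3 fell (13%), and 5 and 5 without weak-cloaked replicate 1. Those that fell were G6PC1, IGFBP1 and PPARGC1A, a coactivator gene of gluconeogenesis and mitochondrial growth, at 10.5, 10.9 and 17.6 against 7.25, 4.20 and 3.45 CPM (-1.39 ± 0.29, adjusted p = 0.0209). PCK1, the other rate-setting enzyme gene of gluconeogenesis, went the opposite way, from 9.54 ± 2.25 to 23.6 ± 9.09 CPM (1.31 ± 0.33, adjusted p = 0.0382), as did the glucokinase regulator gene GCKR (0.72 ± 0.13) and the sugar transporter gene SLC2A10. Among 19 PPAR targets and fatty acid oxidation genes PDK4 (-1.66 ± 0.41), PPARGC1A and the fatty acid binding protein gene FABP1 (-0.48 ± 0.12) fell (15.8%) and ACADVL rose (0.49 ± 0.13, 5.26%), with 2 higher and 5 lower without weak-cloaked replicate 1. PDK4 was under 1 CPM in all 6 libraries.

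A minority of cholesterol and glycolysis genes rose, and none fell. Of 26 cholesterol genes 5 rose (19.2%), with a median of 0.34. The count was 6 without weak-cloaked replicate 1 and 0, 0, 2, 4, 0 and 0 when 1 compared library was left out. The 5 include the sterol enzyme genes MSMO1 (1.13 ± 0.30), EBP (0.83 ± 0.17) and DHCR7 (0.79 ± 0.17). HMGCS1 (-0.09 ± 0.71), an early enzyme gene of the pathway, did not pass the test. Of 20 fatty acid and triglyceride genes AGPAT2 (1.04 ± 0.14, called in every fit) and the desaturase gene SCD (0.39 ± 0.10) rose (10%; list median -0.05, and 0.07 with length and GC offsets), and 3 without weak-cloaked replicate 1. Of 30 glycolysis and hypoxia genes 6 rose (20%), with a median of 0.28. There were 9 increases without weak-cloaked replicate 1 and 0, 2, 0, 4, 0 and 0 in the fits that left out 1 compared library. They include the carbonic anhydrase genes CA9 (1.10 ± 0.23) and CA12 (0.97 ± 0.26) and the glycolytic enzyme genes ALDOA (0.97 ± 0.23) and GAPDH (0.65 ± 0.15), while the hypoxia targets VEGFA (0.04 ± 0.18) and ADM (0.01 ± 0.27) were near 0. Of 35 lysosome and autophagy genes 3 rose (8.57%; 9 without weak-cloaked replicate 1), the protease gene CTSD (0.70 ± 0.17), NEU1 (0.69 ± 0.17) and PSAP (0.58 ± 0.14), with a median of 0.36. Only the fit without non-cloaked replicate 1, of the 6 that left out a compared library, called any of them (3).

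Xenobiotic genes went both ways. CYP1A1, the classic target of the aryl hydrocarbon receptor, stood at 12.6, 12 and 12.1 against 24.4, 24.5 and 38.3 CPM (1.25 ± 0.18, adjusted p = 0.0041), and ALDH3A1, an aldehyde dehydrogenase gene of the same gene battery, at 3.80, 4.47 and 3.65 against 16.2, 17 and 16.6 CPM (2.06 ± 0.17, adjusted p = 8.97e-05). Both were called in every fit, with tight replicates for ALDH3A1. CYP1B1 (-1.81 ± 1.80, adjusted p = 0.557) and the receptor's repressor gene AHRR (-2.69 ± 1.09, adjusted p = 0.135) were below 0 and not called. UGT1A1, the bilirubin conjugating enzyme gene, rose from 150.0, 111 and 201 to 397, 433 and 495 CPM (1.52 ± 0.31), while CYP3A5 (-1.32 ± 0.33) and the sterol exporter gene ABCG8 (-1.51 ± 0.41) fell. In all 3 of 23 tested members rose (13%), the remaining member being UGT2B4, and 2 fell (8.7%), with 5 higher and 3 lower without weak-cloaked replicate 1.

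Calls among ribosomal protein genes were increases and calls among DNA replication genes decreases, a minority of each list. Of 36 cytosolic ribosomal protein genes 10 rose (27.8%) and none fell, by small amounts, and 35 lay above 0 with a median of 0.45. RPL35 (665, 588 and 582 against 868, 924 and 1071 CPM, 0.64 ± 0.15) and RPS28 (0.61 ± 0.14) had the largest increases among those called. The count was 28 without weak-cloaked replicate 1, 3 with length and GC offsets, and 0, 0, 0, 13, 0 and 0 when 1 compared library was left out. These genes have many pseudogenes that could share their reads. Of 34 DNA replication genes 7 fell (20.6%) and none rose, with a median of -0.32, and 12 fell without weak-cloaked replicate 1. With 1 compared library left out 1, 1, 6, 5, 0 and 1 fell, in the 6 libraries alone 3, and with length and GC offsets 5 (median -0.24). The polymerase gene POLA1 stood at 18.3, 21.2 and 19.5 against 10.8, 8.10 and 7.75 CPM (-1.15 ± 0.27, adjusted p = 0.032), the clamp loader gene RFC3 at 35.8, 36.2 and 71.5 against 29.99, 23.3 and 22.1 CPM (-0.93 ± 0.23), and the chromatin assembly gene CHAF1A at -0.93 ± 0.24. None of 30 mitotic genes was called (2 higher and 7 lower without weak-cloaked replicate 1, 1 and 5 with DESeq2), and their median was -0.35, against -0.11 with length and GC offsets and -0.23 without non-cloaked replicate 3. In these bulk samples fewer cycling cells and less RNA per cell cannot be told apart. Of 18 tested G1 regulators 1 rose (5.56%), CDKN1A, and 1 fell (5.56%), the retinoblastoma gene RB1, by 1.29 ± 0.33. That list held 2 higher and 1 lower without weak-cloaked replicate 1. Of 17 tested replication-dependent histone genes 2 rose (11.8%), among them the linker histone gene H1-2 (1.07 ± 0.29), and 6 without weak-cloaked replicate 1.

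Base composition and length moved with these groups. The 4581 genes with the lowest GC content (up to 42.8%) had a median log2 fold change of -0.40, with 0.939% called higher and 5.17% lower, and the 4581 with the highest (56.9% or more) had 0.23, with 7.31% and 0.72%. The 4583 genes with the shortest transcripts (up to 1966 nt) had a median of 0.21 and the 4581 with the longest -0.26. The part of this trend in the results for ribosomal protein, RNA sensing and replication genes was not tested beyond the offsets given above.

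Hepatocyte identity genes showed few calls. None of 27 tested hepatocyte product genes was called, with a median of 0.06; the count was 4 higher and 1 lower without weak-cloaked replicate 1, 2 and 1 with DESeq2, and 0 and 3 with total-count scaling. Albumin (ALB) stood at 5395, 5723 and 6439 CPM against 5826, 4494 and 4586 CPM (-0.24 ± 0.13, adjusted p = 0.269), and the groups overlapped. Alpha-fetoprotein (AFP) was at 252, 274 and 255 against 233, 204 and 214 CPM (-0.26 ± 0.11), APOA1 at 0.38 ± 0.15 and transthyretin (TTR) at 0.01 ± 0.23. Among 21 liver transcription factor genes ONECUT1 fell (-1.55 ± 0.40) and CEBPB rose, 4.76% each (1 higher and 2 lower without weak-cloaked replicate 1). Of 22 tested acute-phase genes LBP rose (1.90 ± 0.48, from under 1 CPM), or 4.55%. IL1RN and the receptor gene IL6R (-0.48 ± 0.13) fell, or 9.09%. In that list 4 higher and 2 lower were called without weak-cloaked replicate 1. In the activin and TGF-β pathway, besides FST, the repressor gene SKIL fell (-1.47 ± 0.39), and the activin subunit genes INHBB (0.98 ± 0.21) and INHBE (0.81 ± 0.13) and TGFB1 (0.83 ± 0.16) rose. Of the 28 members tested 4 rose (14.3%) and 2 fell (7.14%), beside 3.84% and 2.66% of all tested genes. Without weak-cloaked replicate 1 there were 6 higher and 4 lower. Among 20 tested YAP and SRF targets CCN1 (1.60 ± 0.40) and TAGLN (0.94 ± 0.24) rose (10%) and ANKRD1 fell (-1.98 ± 0.50, 5%). There were 4 higher and 3 lower without weak-cloaked replicate 1. Leaving out 1 compared library gave 0, 0, 0, 2, 0 and 0 higher and none lower. The circadian repressor genes NR1D1 (1.58 ± 0.44) and CRY2 (0.63 ± 0.17) rose, the only calls among 20 tested clock genes (10%). That list held 6 higher and 2 lower without weak-cloaked replicate 1. With 1 compared library left out it held 0, 0, 0, 2, 0 and 0 higher and none lower. Among 30 tested mRNA decay genes BTG2, ZFP36L1 (0.83 ± 0.20) and ZFP36 (0.66 ± 0.18) rose (10%). The exonuclease gene XRN1 fell (-1.25 ± 0.33, 3.33%), against 4 higher and 5 lower without weak-cloaked replicate 1. In the fit without that library 8.29% of all tested genes were higher and 8.22% lower.

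Markers of other cell types were measured alongside. Leukocyte markers summed to 1156 to 1576 CPM in untransfected and 1116 to 1166 CPM in non-cloaked libraries, nearly all of it from the lysozyme gene LYZ (1281 ± 223 and 1053 ± 38.1 CPM), and MS4A1 and FCGR3A were at 0 in all 6 libraries. Of 12 tested leukocyte markers 1 rose (8.33%, beside 3.84% of all tested genes), CD68, also a lysosomal protein gene (1.74 ± 0.45). CD68 stood at 29.4, 5.25 and 26 CPM in untransfected libraries, low in replicate 2. Fibroblast and endothelial markers summed to 29.7 to 55.4 and 33.3 to 39.3 CPM, with THY1 at 0, and 1 of 12 tested (8.33%), TIE1, rose (1.46 ± 0.19). Markers of other epithelia summed to 314 to 368 and 322 to 555 CPM, with KRT5 and SCGB1A1 at 0, and 1 of 10 tested (10%), KRT17, rose (1.51 ± 0.32). Without weak-cloaked replicate 1 each of these lists again held 1 higher, and the fibroblast and endothelial list also held 1 lower. None of the 10 HepG2 markers was called (2 higher and 1 lower without weak-cloaked replicate 1, 1 lower with DESeq2, 3 lower with total-count scaling).

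Of the 24 called genes of moderate or high level that led by size, 12 in each direction, 8 were called in every fit: SLAMF9, KRTAP3-1, TPSAB1, WNT7B and TPSB2 among those that rose, and SPAG1, G6PC1 and FST among those that fell. The tryptase genes TPSAB1 (2.51 ± 0.28) and TPSB2 (2.09 ± 0.29) are near-identical, so their counts are uncertain. SLC2A10 had the largest increase of these, at 0.0729, 0.995 and 0.581 CPM in untransfected and 19.3, 5.79 and 14.2 CPM in non-cloaked libraries (4.56 ± 0.85, adjusted p = 0.0164), and missed the threshold without untransfected replicate 3. CKAP4, a reticulum membrane protein gene, stood at 22.1, 32.6 and 24.8 against 275, 265 and 89.7 CPM (2.99 ± 0.64, adjusted p = 0.0247) and was called in 2 of the 6 fits that left out a library. The complement gene C2 stood at 9.06, 14.2 and 10.8 against 16, 27.6 and 136 CPM (2.40 ± 0.64), with non-cloaked replicate 3 far above the others, and was called in 1 of those 6 fits. Among decreases ZNF362 went from 18.7, 12.7 and 12.9 to 0.770, 0.328 and 0.649 CPM (-4.66 ± 0.93, called in 3 of 6), FNIP2 from 11.3, 17.7 and 25.4 to 3.23, 0.698 and 0.461 CPM (-3.62 ± 0.95, 1 of 6) and the kinase gene RPS6KA3 from 94.3, 194 and 222 to 44.5, 27.9 and 39.5 CPM (-2.19 ± 0.50, 2 of 6). The remaining leading increases were HSD17B7P2, a pseudogene with near-identical relatives, PLK3, TENT5B and SLC25A25, between 2.07 and 2.50, and the remaining decreases were ZNF587B, SASS6, ZCCHC8, LRRCC1, RAB11FIP2 and MBTD1, between -2.27 and -2.07. All 24 kept their direction in every fit, which their choice for groups without overlap largely fixed in advance.

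SPAG1, a ciliary dynein assembly factor gene (chr8:100157906-100259278), had the largest decrease of these. It stood at 10.8, 13.8 and 23.6 CPM in untransfected libraries and at 0.316, 0.178 and 0.307 CPM in non-cloaked libraries (-5.91 ± 0.46, adjusted p = 8.97e-05). The lowest untransfected library lay far above the highest non-cloaked one, and the call held in every fit. Of the other 19 tested dynein assembly genes 1 was called, DNAAF10 (-0.81 ± 0.20), and none rose. Of the 20, SPAG1 included, 4 fell without weak-cloaked replicate 1. Among the cloaked groups SPAG1 was at 16.2, 9.67 and 8.68 CPM in the weak-cloaked libraries. It was at 0.188, 0.219 and 0.338 CPM in medium-cloaked and 0.146, 0.377 and 0.233 CPM in strong-cloaked libraries, near the non-cloaked level. Weak-cloaked replicate 1, which did not lie with its group, was within the untransfected range. Weak-cloaked replicates 2 and 3 lay somewhat below all untransfected libraries and far above the non-cloaked ones.

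Non-cloaked cells were then set against the mean of the 3 cloaked groups, to ask whether any change belonged to the mRNA without CR-3 treatment. No gene of 18380 was called (0% of tested genes, edgeR's quasi-likelihood test), and 1231 (6.7%) had an unadjusted p below 0.05. Without weak-cloaked replicate 1 again 0 were called, and 1900 of 18823 genes had an unadjusted p below 0.05. DESeq2 called 20, 2 higher and 18 lower. Libraries of the non-cloaked and cloaked groups did not overlap in 217 genes (1.18%). The 5 genes of smallest p all had an adjusted p of 0.604 in edgeR's test. With DESeq2 all 5 passed, at an adjusted p of 3.02e-08 for SVIL, 2.78e-05 for MTIF3 and 5.98e-05 for MVB12A. SMG1P2 and SLC25A30 had 0.00261 each in DESeq2. SVIL, the gene of the actin-binding protein supervillin, stood at 0.660, 1.01 and 0.802 CPM in non-cloaked libraries, below all 9 cloaked libraries (6.27 to 15.4 CPM), but the untransfected libraries were spread from 0.592 to 7.55 CPM. MVB12A, an endosomal sorting gene, stood at 4.87, 7.28 and 5.85 CPM, below all cloaked libraries (10.3 to 33.8 CPM). The mitochondrial initiation factor gene MTIF3 (4.87, 6.38 and 5.55 CPM) and the pseudogene SMG1P2 (0.261, 0.287 and 0.222 CPM, with near-identical relatives) also lay below all 9, and the carrier gene SLC25A30 overlapped them. SLC2A10 was higher in non-cloaked than in cloaked libraries in the mean, by 2.22 ± 0.55 on the log2 scale, but the groups overlapped and the test was not passed (adjusted p = 0.696). SPAG1 differed by -1.74 ± 0.37, through the weak-cloaked libraries (adjusted p = 0.604; 0.0056 with DESeq2).

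The 93 genes called in every fit were close to the cloaked groups in level. Leaving out SPAG1, the other 92 differed between non-cloaked cells and the cloaked mean by -0.46 (KRTAP3-1) to 0.41 (ENTPD8) on the log2 scale, with a median absolute difference of 0.106. The cloaked libraries took part in the filter, the scaling and the shared estimate of spread behind this set, and both contrasts share the non-cloaked libraries. AREG, at 10.1, 10.3 and 11.9 CPM in non-cloaked libraries, differed from the cloaked mean of 10.2 CPM by 0.08 ± 0.14, and ISG15 from its cloaked mean of 53.3 CPM by 0.11 ± 0.13. A p that misses the threshold does not show that cloaked and non-cloaked mRNA act alike.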

How the data were processed

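Poly(A)-selected, strand-specific libraries were sequenced as 150 bp paired-end reads, per the labels' protocols. The authors deposited raw read counts per gene for all 15 libraries in 1 matrix; the submitters' processing notes name HISAT2, HTSeq, DESeq2 1.46.0, R 4.4.2 and GRCh38. Which annotation was counted, with what strand setting, and how the matrix was filtered is not given in the sources used here. Therefore overlapping, antisense and near-identical genes stay uncertain. The matrix held 41412 rows, 14176 of them 0 throughout; the 1330 rows that share a symbol were kept apart.

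Each column carries a name that the labels assign to 1 sample, and the labels call the replicates biological. All replicate pairs differed by more than sampling noise. In R 4.3.3 with edgeR 4.0.16, genes were filtered by filterByExpr, scaled by TMM, and fitted over all 15 libraries with 1 mean per group (robust quasi-likelihood test, Benjamini-Hochberg adjustment, threshold 0.05). CPM values are counts scaled by library size and TMM factor. The SE of a log2 fold change came from its size and the F statistic. Positions, lengths and GC content came from GENCODE 29 (GRCh38; 99.7% of tested genes) and promoters from RefSeq. Changes of known size were placed in a simulation of this comparison with 17992 genes. The fit recovered 6 of 67 at 1.5-fold (8.96%), 27 of 67 at 2-fold (40.3%) and 52 of 66 at 4-fold (78.8%). Most of those at 1.5- and 2-fold were missed, so a gene that was not called may still differ by that much. Fewer genes were changed in the simulation than were called in the data. Its spread came from all 15 libraries, weak-cloaked replicate 1 included. The shares recovered may therefore differ from those in the data.

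The comparison and the gene lists were chosen with earlier results of these data known. Named genes were the 24 that led by size (12 up, 12 down) among calls whose mean log2 CPM reached 1 and whose groups did not overlap, up to 4 called members per list by size, the 5 smallest p against the cloaked groups, and a fixed set of interferon, sensor and liver genes. A few named genes are not reported here. Other list members, and the set of 93 genes called in every fit, were named after their values were seen. Lists are described by counts and medians. Alternatives were DESeq2 1.42.0, RLE and total-count scaling, other filters, the replicate number as a block, the compared libraries alone, offsets for length and GC, and leaving out libraries in turn.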

Additional observations from a re-analysis of the deposited data

How the results depend on the processing

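Of the 1195 calls in non-cloaked against untransfected cells, the count was 2968 with DESeq2 (1518 higher, 1450 lower) and 3107 without weak-cloaked replicate 1 in the fit (1560 and 1547). With total-count scaling 346 were higher and 758 lower, and with no filter on low counts 324 were lower. Leaving out 1 library of the 2 groups gave 119 to 1127 calls, 93 to 659 of them higher and 26 to 468 lower. Against the cloaked mean, where 0 were called, DESeq2 called 20 (2 higher, 18 lower), the 12 transfected libraries fitted alone gave 1, lower, and leaving out a library gave 0 to 1. The cause of these shifts was not tested. The totals with RLE size factors (1198), the 6 libraries alone (1013), length and GC offsets (940), a filter of 50 counts in 3 libraries (1573) and no filter (814) stayed within 1.5 times. Similar totals did not always hold the same genes. Of the 1195 calls, 1181 were shared with RLE size factors and 1183 with the filter of 50 counts. Only 691 (57.82%) were shared with the 6 libraries alone and 683 (57.15%) with length and GC offsets. The 6 libraries alone gave 495 higher and 518 lower. Same-numbered replicates of the groups share only a number: their deviations correlated at -0.162, 0.048 and -0.137, and only replicate 2 correlated best with its own number. With the replicate number as a block 1424 genes were called (775 higher, 649 lower), and 1223 with the block and length and GC offsets. Of the 117 named genes that were called, all kept their direction in every alternative, which calling them in the same libraries largely fixed in advance. Of them, 94 were called with total-count scaling, 82 with length and GC offsets, 107 with the block, 116 with DESeq2 and 82 in the 6 libraries alone. Depth limits the interferon genes, where a count of 0 allows 3 counts; elsewhere the spread between 3 replicates is the limit.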

Other observations

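The S100 calcium-binding proteins and the keratins, grouped by name after their values were seen, held many increases beside the 3.84% of all tested genes that were called higher. Of 15 tested S100 genes 10 rose and none fell, and all 15 lay above 0, with a median log2 fold change of 1.12 (0.92 with total-count scaling and 0.76 with length and GC offsets). S100A6 stood at 44.9, 39.7 and 41.8 CPM in untransfected and 86.8, 101 and 106 CPM in non-cloaked libraries (1.22 ± 0.14, adjusted p = 0.000966 in edgeR's quasi-likelihood test). S100A14 rose from 12.6, 16.9 and 11.4 to 35.4, 47.7 and 39.1 CPM (1.58 ± 0.21) and S100A16 from 38.1, 31.1 and 27.7 to 65.1, 69.5 and 76.6 CPM (1.12 ± 0.17). S100P, the member with the most counts, had the smallest called increase (0.55 ± 0.13). Of 20 tested keratin genes 6 rose and none fell. KRT19, a keratin of bile duct and other simple epithelia, stood at 204, 227 and 159 against 387, 486 and 471 CPM (1.19 ± 0.15, adjusted p = 0.00206), KRT15 at 1.53, 1.51 and 1.70 against 5.45, 5.16 and 3.84 CPM (1.61 ± 0.26) and KRT10 at 20.01, 17.8 and 25.7 against 34.2, 42.3 and 44.6 CPM (0.93 ± 0.19). The hepatocyte keratins KRT8 (0.38 ± 0.14, adjusted p = 0.097) and KRT18 (0.14 ± 0.13, adjusted p = 0.545) were not called.

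Among 5 tested ligands of the epidermal growth factor receptor, HBEGF rose along with AREG and EREG, from 6.25, 6.49 and 6.04 to 9.74, 10.8 and 11.3 CPM (0.76 ± 0.21, adjusted p = 0.0481), while TGFA (-0.23 ± 0.24) and EGF (-1.16 ± 0.54) were below 0 and not called. Of 7 insulin-like growth factor binding protein genes IGFBP4 (302, 300.0 and 310.4 against 624, 742 and 655 CPM, 1.15 ± 0.15) and IGFBP6 (1.31 ± 0.24) rose while IGFBP1 fell.

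Zinc finger genes were the largest family with many decreases. Of 539 tested ZNF genes 31 fell (5.75%) and 4 rose (0.742%), beside 2.66% lower and 3.84% higher among all tested genes. Of the ZNF genes 414 lay below 0, with a median of -0.47. With length and GC offsets the median was -0.25, and 15 fell and 2 rose, beside 329 lower and 611 higher of all 18380 genes. Their median GC content was 43.5%, and of all genes up to 42.8% GC 5.17% were called lower. Of 40 centrosomal CEP genes 6 fell (15%) and none rose (3 fell with those offsets). Of 46 ubiquitin-specific protease genes 4 fell (8.7%) and 1 rose (2.17%). In the whole family of 80 cytosolic ribosomal protein genes 26 rose (32.5%) and none fell, and of 19 ATP synthase subunit genes 5 rose (26.3%) and none fell. Of 44 complex I subunit genes 2 rose (4.55%, with 16 higher and 0 lower without weak-cloaked replicate 1), and 37 lay above 0. Of 37 proteasome subunit genes 2 rose (5.41%, with 5 higher and 2 lower without that library). Of 75 mitochondrial ribosomal protein genes 1 rose (1.33%, with 12 higher and 2 lower without it). The shares of complex I, proteasome and mitochondrial ribosomal genes were near or below the 3.84% of all tested genes. The medians of the proteasome and mitochondrial ribosomal families, 0.11 and 0.10, were -0.09 and -0.10 with total-count scaling. Without weak-cloaked replicate 1 there were also 10 higher and 78 lower zinc finger genes and 0 higher and 10 lower CEP genes. That fit held 2 higher and 13 lower ubiquitin-specific protease genes, 59 higher and 0 lower cytosolic ribosomal protein genes and 10 higher and 0 lower ATP synthase genes. The S100 genes held 11 increases in it and the keratins 6. Among all genes tested in that fit 8.29% were higher and 8.22% lower.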
